A study of Rattus norvegicus with 61 samples.

Results

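Blood monocytes were compared with splenic B cells of the rat, the pair of sorted immune cell types in this series that are able to present antigen. The members were the 6 monocyte samples and the 6 B cell samples named as such by the sample labels, 12 of 61 samples in all, and each was measured by RNA sequencing of bulk sorted cells. The other sorted samples were 6 each of neutrophils from blood and CD4 T, CD8 T and NK cells from spleen. Unsorted were 5 spleen cell suspensions (called whole spleen here) and 5 preparations of whole blood cells, both after lysis of red cells. The remaining samples were 15 livers of rats given vehicle (Ctrl), acetaminophen (APAP) or methylene dianiline (MDA). The study prepared the sorted profiles as a rat reference for estimating immune cell composition from tissue RNA.

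All rats were male wild-type Sprague-Dawley animals, purchased at 6 weeks of age, and the rats that gave monocytes and B cells were untreated. Monocytes were sorted from blood as CD45+/CD11b+/CD3-/CD45RA-/CD161-/SSC-low cells and B cells from spleen as CD45+/CD11b-/CD3-/CD45RA+ cells, both after lysis of red cells. Monocytes therefore came only from blood and B cells only from spleen, so that cell type and tissue of origin, with its preparation, cannot be told apart in this comparison. No source used here states that the 6 samples of a group came from separate rats, and p-values measure only the spread between these samples, which may be technical. In bulk RNA, fewer cells of a type and less RNA per cell cannot be told apart either.

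Monocytes are circulating myeloid cells that take up particles, sense microbes through pattern recognition receptors and enter tissue, where they can become macrophages or dendritic cells. B cells are lymphocytes that carry an immunoglobulin receptor, gather in the follicles and marginal zone of the spleen and can become antibody-secreting plasma cells. Both cell types take up antigen and load its peptides on class II molecules of the major histocompatibility complex for recognition by CD4 T cells.

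The table lists transcripts by Ensembl rat transcript identifiers, and 0 of its 31196 identifiers matched an entry among the 47357 genes of the reference names used here. Transcripts are therefore reported by identifier, without gene, position or function, and the labels could not be checked against marker genes. Levels are given as CPM, which is the deposited estimated count divided by the total of its sample and multiplied by 1000000. The lowest values above 0 differed between transcripts, as they would had transcript length been divided out, and levels were compared between transcripts on that reading, which the files do not state. A value of 1 is not 1 read. Totals ran from 9510256 to 10995313 estimated counts in monocytes and from 9697465 to 12141814 in B cells. Monocyte samples resembled each other with pairwise r of 0.968 to 0.976 over log2(CPM + 1), and B cell samples with 0.932 to 0.979. B cell replicate 2 stood farthest from the others of its group, with a mean r of 0.953 and a TMM scaling factor of 1.11 against 0.94 to 0.993 in the other 5 B cell samples.

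Monocytes and B cells were far apart, whereas the B cell samples lay close to every other spleen-derived group. Over the 13980 transcripts that averaged 1 CPM or more in the 12 samples, log2(group mean CPM + 1) of monocytes and B cells had r = 0.856, and 3425 transcripts (24.5%) were more than 2-fold apart. B cells had r = 0.977 with CD4 T cells, 0.977 with CD8 T cells, 0.975 with NK cells and 0.98 with whole spleen. More than 2-fold apart from B cells were 594 transcripts in CD4 T cells, 553 in CD8 T cells, 567 in NK cells and 456 in whole spleen. Differences over 8-fold on this scale numbered 401 between monocytes and B cells, but 2 between B and CD4 T cells, 4 between B and CD8 T cells and 24 between B and NK cells. Monocytes were less close to the other blood groups, with r = 0.949 and 1842 transcripts more than 2-fold apart from neutrophils, and r = 0.959 and 1336 transcripts from whole blood cells. These r are across transcripts, which are not independent replicates, and describe the group means only. How far the 4 sorted splenic populations were separated from each other by the sort was not tested, because their marker genes could not be identified.

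RNA was spread over more transcripts in monocytes than in B cells. The 100 most abundant transcripts held 35.9% ± 1.04 of the total in monocytes (SD, n = 6) and 46.3% ± 1.82 in B cells (SD, n = 6), with no overlap between the groups (exact permutation test over 924 splits, two-sided p = 0.00216, adjusted p = 0.00325 over 6 quantities). This is the smallest p that 6 against 6 samples allow. It took 238 ± 12.3 transcripts to reach 50% of the total in monocytes and 122 ± 13.7 in B cells (exact permutation p = 0.00216, adjusted p = 0.00325). The 10 most abundant transcripts held 9.74% ± 0.865 in monocytes and 12.7% ± 1.17 in B cells (exact permutation p = 0.00433, adjusted p = 0.00519).

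**Figure D1:**
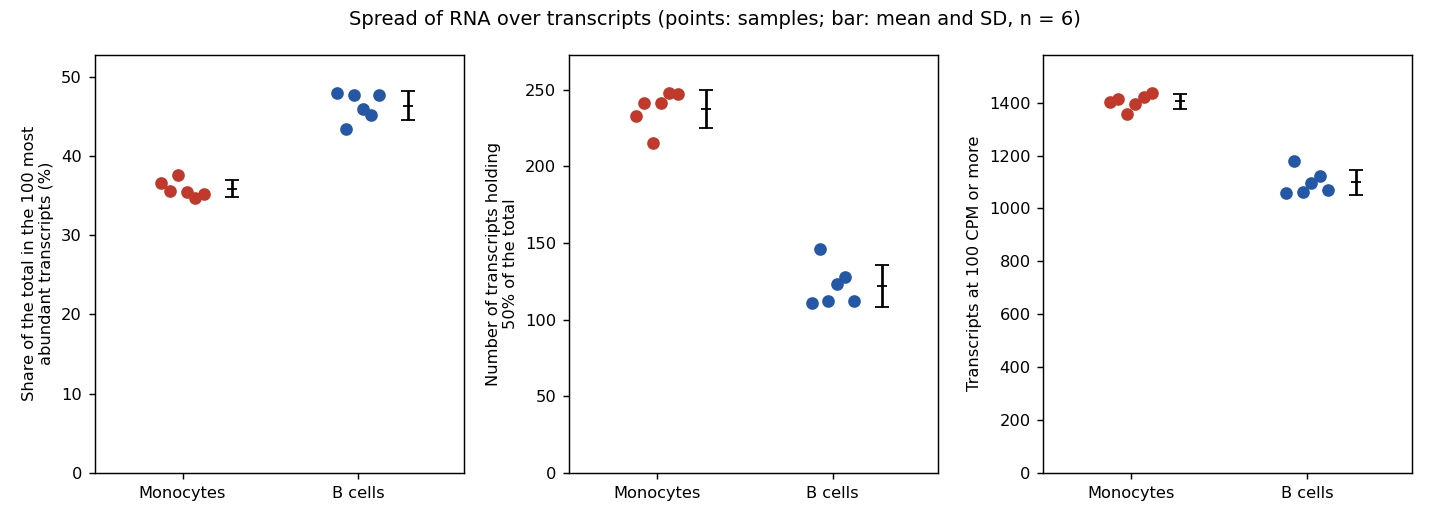
Share of the total held by the 100 most abundant transcripts (left, %), number of transcripts that hold 50% of the total (middle) and number of transcripts at 100 CPM or more (right) in each monocyte and B cell sample. Points are samples and bars are the mean and SD (n = 6). In each panel the 6 monocyte samples and the 6 B cell samples do not overlap.

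Monocytes held 1405 ± 27.5 transcripts at 100 CPM or more and B cells 1099 ± 47.2 (exact permutation p = 0.00216, adjusted p = 0.00325). At the lower level of 10 CPM or more the counts were 7928 ± 89.7 and 7815 ± 281 and overlapped (exact permutation p = 0.394, adjusted p = 0.394). More transcripts were listed at 0 in monocytes, 46.5% ± 0.571, than in B cells, 42.8% ± 0.308 (exact permutation p = 0.00216, adjusted p = 0.00325). Monocytes thus had more transcripts of high level and fewer listed above 0. The totals of the 2 groups overlapped, while the number of reads behind each value is unknown.

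The direct comparison asked which transcripts differed between the 2 cell types, and edgeR's quasi-likelihood test called 4543 transcripts higher in monocytes, 32.5% of those tested, and 4525 higher in B cells, 32.4% (Benjamini-Hochberg adjusted p under 0.05). Together 9068 transcripts, 64.9% of those tested, passed, and 4912 did not. The median log2 fold change, monocytes minus B cells, was 0.88 among those higher in monocytes, -0.82 among those higher in B cells and -0.04 over all transcripts tested. In 3426 of the 4543 transcripts and in 2814 of the 4525, every sample of the higher group lay above every sample of the lower group. Among all transcripts tested, 24.6% did not overlap with monocytes higher and 20.2% with B cells higher.

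The balance between the directions changed with the size of the difference. More than 2-fold higher were 2023 transcripts in monocytes and 1857 in B cells, and more than 4-fold higher 965 and 791. Above 8-fold there were 474 in monocytes and 370 in B cells, and above 16-fold 133 and 164. Above 32-fold there were 35 in monocytes and 88 in B cells, so that the most extreme differences were more often higher in B cells. Most of those over 8-fold did not overlap between the groups, 445 of 474 and 337 of 370. The shares over all transcripts tested were 24.6% and 20.2%, and the same samples chose these sets by test and fold change. Above 32-fold, 20 of 35 and 79 of 88 did not overlap. In their lower group, the sets over 8-fold had median levels of 2.06 CPM (B cells) and 0.511 CPM (monocytes). So near 0, the size of a fold change depends on the small count that the fit adds.

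**Figure D2:**
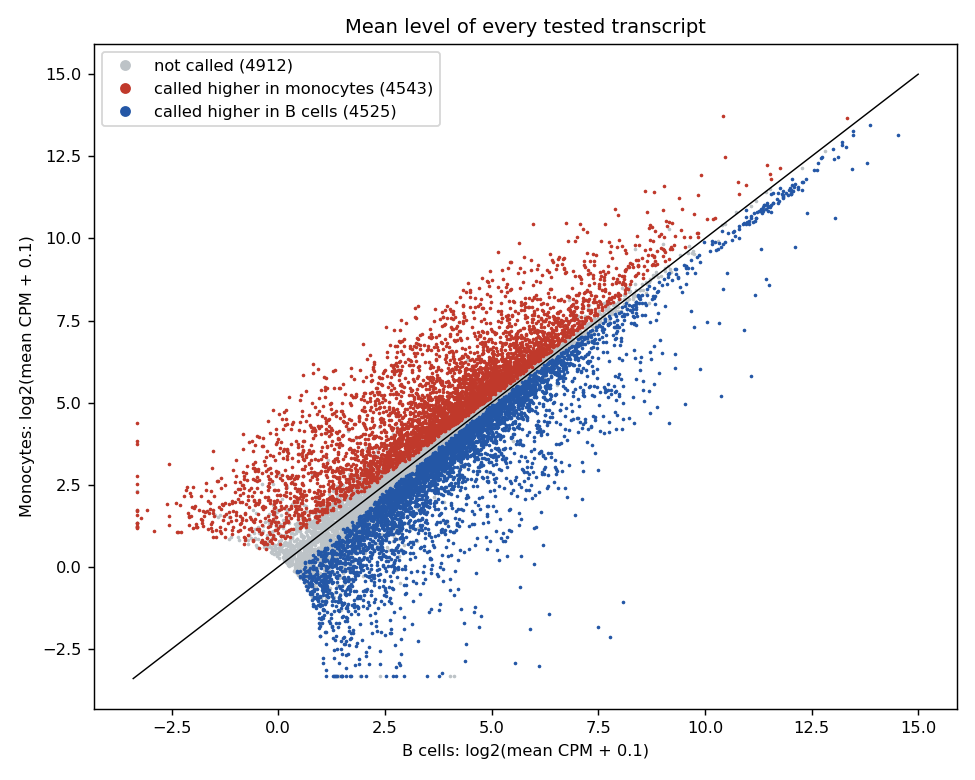
Mean level of each of the 13980 transcripts tested in B cells (horizontal axis) and monocytes (vertical axis), both as log2(mean CPM + 0.1). Points are transcripts, red where called higher in monocytes (4543), blue where called higher in B cells (4525) and grey where not called (4912), and the line marks equal levels. Most of the densest points at the upper right, where the 100 most abundant transcripts of each type lie, are just below the line, on the B cell side.

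At the top of the abundance range the 2 cell types mostly held the same transcripts at different levels. The 100 most abundant transcripts of each type shared 83, and the 10 most abundant shared 8. Of the 100 most abundant in monocytes, 73 were called higher in B cells and 20 higher in monocytes. Of the 100 most abundant in B cells, 89 were called higher in B cells and 5 higher in monocytes.

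The transcripts more than 8-fold higher in monocytes were mostly high in neutrophils also. Their median level was 28.7 CPM in monocytes, 2.06 in B cells and 18.5 in neutrophils, against 1.89 in CD4 T cells, 1.94 in CD8 T cells and 2.79 in NK cells. Whole blood cells had a median of 12.1 CPM, whole spleen 4.76 and control liver 0.856. Of the 474, 233 (49.2%) had a monocyte mean at least 2 times the neutrophil mean, against 14.5% of all transcripts tested. A neutrophil mean at least 2 times the monocyte mean was found in 63 (13.3%), against 5.46% of all, and 178 lay within 2-fold. The monocyte levels also chose the set, so these shares are descriptions, and no test was made on them.

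The transcripts more than 8-fold higher in B cells were present in the other splenic cell types as well. Their median level was 9.39 CPM in B cells and 0.511 in monocytes, against 5.67 in CD4 T cells, 5.53 in CD8 T cells, 7.40 in NK cells and 7.34 in whole spleen. Neutrophils had a median of 0.768 CPM, whole blood cells 1.81 and control liver 0.359. Sums of the set were uneven among CD4 T, CD8 T and NK samples. Replicate 5 was the highest of each type, at 20231, 22262 and 22847 CPM, where B cell samples held 21391 to 28735 CPM. The other samples held 8040 to 12853, 8144 to 13272 and 9998 to 15908 CPM, respectively. A B cell mean at least 2 times that of each of CD4 T, CD8 T and NK cells was found in 75 of the 370 (20.3%), against 1.22% of all transcripts tested. In 166 (44.9%) the 4 splenic cell types lay within 2-fold of each other, against 84.5% of all transcripts tested. B cells were the lowest of the 4 in 11, against 43.5% of all. The set thus leaned toward B cells within the spleen more than transcripts at large, although the B cell levels also chose it, and most of its members were less than 2-fold above the highest of the other 3 splenic types.

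**Figure D3:**
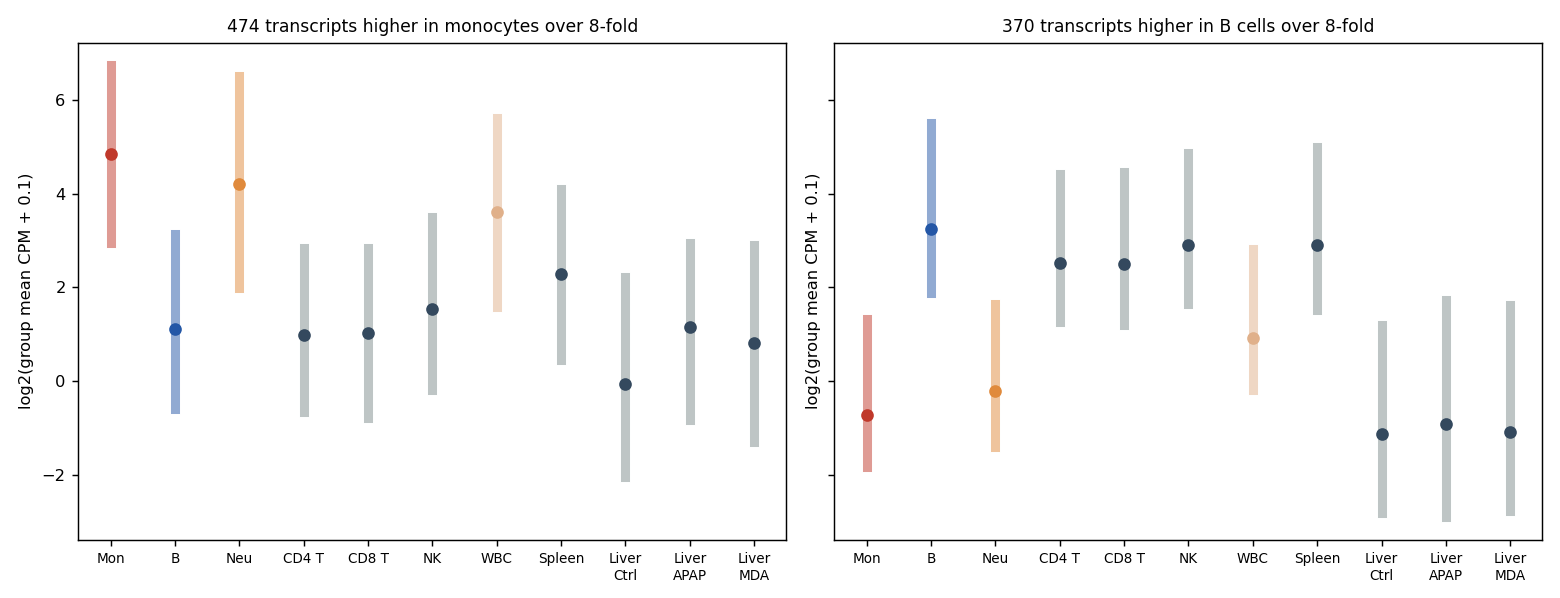
Levels of the 474 transcripts more than 8-fold higher in monocytes (left) and the 370 more than 8-fold higher in B cells (right) in every group of the series, as log2(group mean CPM + 0.1). Points are medians over transcripts and bars span the quartiles. The left set is high in neutrophils (median 18.5 CPM) beside monocytes (28.7 CPM), and the right set lies between 5.53 and 9.39 CPM in the 4 sorted splenic types.

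Among the 6 sorted types, the share of transcripts highest in B cells rose with the size of the difference, while that highest in monocytes changed little. Of the 4543 transcripts higher in monocytes, 2961 (65.2%) were highest in monocytes and 1253 (27.6%) in neutrophils. Of the 4525 higher in B cells, 1104 (24.4%) were highest in B cells, 1261 in NK cells, 1043 in CD8 T cells, 1017 in CD4 T cells and 100 in neutrophils. Over all transcripts tested, 25.9% were highest in monocytes and 10.2% in B cells. Among those over 8-fold, monocytes were highest in 327 of 474 (69.0%) and B cells in 290 of 370 (78.4%). The monocyte and B cell levels also chose these sets, so the shares are descriptions.

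Individual samples differed in how much of the opposite set they carried. The 474 transcripts higher in monocytes summed to 54006 to 64770 CPM in monocyte samples. In B cell replicates 4 and 5 they summed to 7665 and 6368 CPM, and in the other 4 B cell samples to 3902 to 4731 CPM. The 370 transcripts higher in B cells summed to 1080 to 1985 CPM in monocyte samples and to 21391 to 28735 CPM in B cell samples, with B cell replicate 2 highest. Leaving out any single B cell sample changed the number of transcripts called in either direction by less than 1.5 times.

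For the transcripts named here, a difference had to pass the test without overlap and with a mean of at least 100 CPM in the higher group, and the largest in each direction were taken. Under this rule ENSRNOT00000064917 had the largest fold change toward monocytes. Its lowest, median and highest levels were 86.2, 112 and 135 CPM in monocytes and 2.32, 3.33 and 5.99 CPM in B cells. All 6 monocyte samples lay far above all 6 B cell samples, with a log2 fold change of 4.80 (SE 0.245, edgeR adjusted p = 3e-09). Neutrophils followed at 29.3 CPM ± 5.89 (SD, n = 6) and whole blood cells at 19.98 CPM ± 4.39 (SD, n = 5). CD4 T, CD8 T and NK cells, at 3.27, 3.62 and 3.36 CPM, were within the range of the B cell samples, and control liver held 0.0205 CPM.

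ENSRNOT00000011711 varied little among monocyte samples, at 159 CPM ± 4.94 (SD, n = 6). B cells held 1.23, 4.32 and 12.1 CPM as their lowest, median and highest level, and the highest was B cell replicate 4. The log2 fold change was 4.79 (SE 0.408, edgeR adjusted p = 3.2e-07), and all 6 monocyte samples were above all 6 B cell samples. Neutrophils held 27.0 CPM and whole blood cells 28.8 CPM. Unlike ENSRNOT00000064917, this transcript was present in liver, with group means of 18.8 CPM in Ctrl, 32.4 CPM in APAP and 45.3 CPM in MDA livers.

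Under the same rule, with a mean of at least 100 CPM in the higher group, ENSRNOT00000017065 had the largest fold change toward B cells. B cells held 161, 192 and 327 CPM as their lowest, median and highest level. Monocytes held at most 0.319 CPM and were listed at 0 in 3 of 6 samples. The fitted log2 fold change was -10.61 (SE 0.407, edgeR adjusted p = 2.9e-10). So close to 0, its size depends on the small count that the fit adds to every value. The transcript was not limited to B cells, since NK cells held 217 CPM, CD4 T cells 144 CPM, CD8 T cells 152 CPM, whole spleen 246 CPM and control liver 136 CPM. Neutrophils, the other cell type sorted from blood, held 0.430 CPM ± 0.358 (SD, n = 6). Whole blood cells ranged from 0.134 to 59.1 CPM, with replicate 5 far above the next sample at 4.34 CPM.

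ENSRNOT00000017060 showed the same distribution at a slightly lower level. B cells held 136, 153 and 273 CPM as the lowest, median and highest level, and monocytes were listed at 0 in 4 of 6 samples with a highest level of 0.933 CPM. The fitted log2 fold change was -9.91 (SE 0.496, edgeR adjusted p = 2.5e-09), again dependent on the added count, and it was -11.84 without monocyte replicate 2, the sample at 0.933 CPM. NK cells held 182 CPM, CD4 T and CD8 T cells 121 CPM each, whole spleen 204 CPM and control liver 114 CPM. In both transcripts B cell replicates 4 and 5 were the highest B cell samples, and these were also the 2 B cell samples with the highest sums of the monocyte set. Whether these 2 transcripts share reads was not tested.

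**Figure D4:**
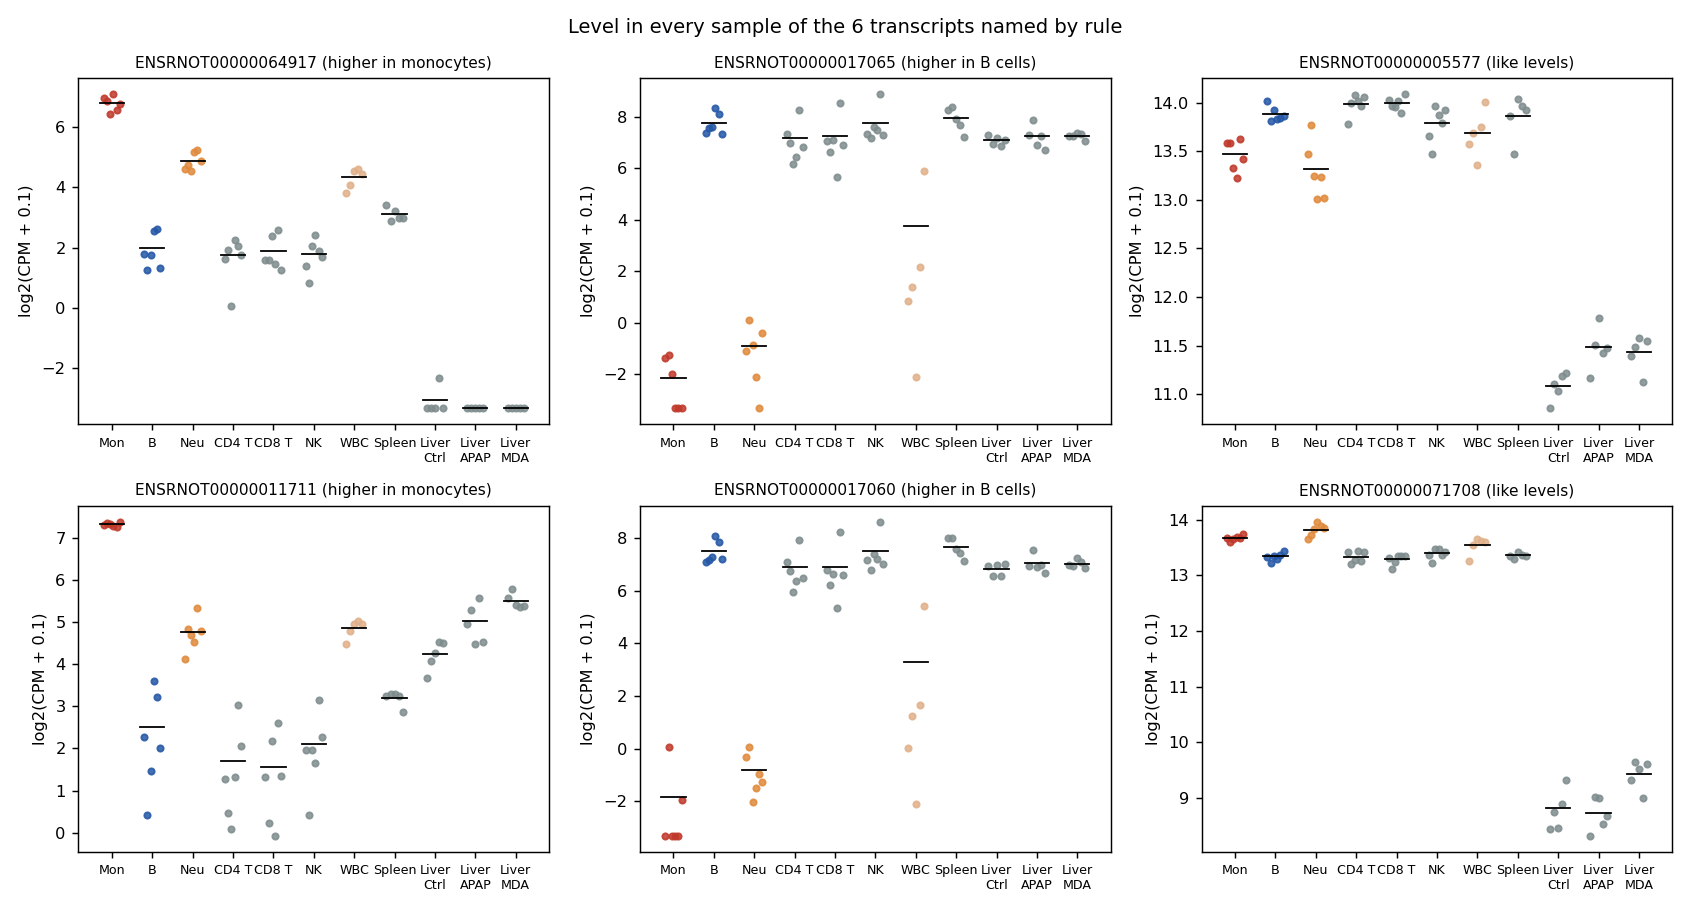
Level in every sample of the series of the 6 transcripts named by rule, as log2(CPM + 0.1). Points are samples, lines are log2 of the group mean CPM + 0.1, and samples listed at 0 lie at the bottom of their panel. The 2 transcripts higher in monocytes are next highest in neutrophils among the sorted types, and the 2 higher in B cells are at comparable levels in all splenic groups and livers.

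Whether the differences followed the direction of blood against spleen was asked in samples that shared none with the comparison. Neutrophils from blood were tested against the mean of splenic CD4 T, CD8 T and NK cells with the same edgeR test, which called 34.9% of 14180 transcripts higher in neutrophils and 38.8% higher in the splenic cells. Of the transcripts higher in monocytes, 4388 were tested and 3425 (78.1%) were higher in neutrophils, while 202 were higher in the splenic cells. Without TMM these counts were 2465 and 830, so that they depended on the scaling. Of those higher in B cells, 4490 were tested and 3565 (79.4%) were higher in the splenic cells, while 246 were higher in neutrophils. The test took splenic samples as independent, although those of the same number tended to deviate together. With the replicate number as a block, 3382 transcripts were higher in monocytes and in neutrophils. Another 3387 were higher in B cells and in the splenic cells. Members that averaged under 1 CPM in these samples were not tested. Transcripts low in both neutrophils and splenic cells are therefore missing from these shares. A member could also reach the minimum only through the group in which it was then called higher. Of the 474 transcripts more than 8-fold higher in monocytes, 393 were tested and 382 of them (97.2%) were higher in neutrophils. The 474 had a median of 18.5 CPM in neutrophils and of 1.89 to 2.79 CPM in the splenic types. Many could thus enter the test through neutrophils alone, and the share is a description only. Of the 370 more than 8-fold higher in B cells, 349 were tested. Of these, 314 (90.0%) were higher in the splenic lymphoid cells, none of which were B cells by label. The labels could not be checked, and these splenic groups lay close to B cells (r = 0.975 to 0.977). Neutrophils had r = 0.949 with monocytes, so that these shares are not independent support for the differences. Here too, lineage and tissue of origin differ together.

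Whole blood cells and whole spleen, 5 each, gave smaller differences in the same directions. Of all 13885 transcripts tested, 23.9% were higher in whole blood cells and 22.7% in spleen. Of the transcripts higher in monocytes, 2513 of 4424 tested (56.8%) were higher in whole blood cells and 161 (3.64%) in spleen, and the log2 fold changes had a median of 0.34. Of those higher in B cells, 2274 of 4470 tested (50.9%) were higher in spleen and 179 in whole blood cells, and the median was -0.33. The corresponding counts above 8-fold were 371 of 413 tested (89.8%) higher in whole blood cells and 253 of 345 (73.3%) higher in spleen. Members that averaged under 1 CPM in these mixtures were again left out of the shares, from sets of 474 and 370. Others could again enter only through the group in which they were then called higher, so these shares are descriptions too. Whole blood contains monocytes and spleen contains B cells, so that these mixtures do not separate tissue from cell type.

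The 4 named transcripts moved with their sets. ENSRNOT00000064917 and ENSRNOT00000011711 were higher in neutrophils than in the splenic cells by log2 fold changes of 3.55 and 3.43 (edgeR adjusted p = 4.4e-13 and 5.2e-09). ENSRNOT00000017065 and ENSRNOT00000017060 were lower in neutrophils, with log2 fold changes of -7.92 and -7.76 (edgeR adjusted p = 7.1e-11 and 1.2e-10). Between whole blood cells and spleen the log2 fold changes of the 4 were 1.38, 1.83, -4.01 and -4.21 (edgeR adjusted p = 3.5e-05, 2.5e-06, 0.00951 and 0.00573).

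Shared abundant transcripts made up about as much of the RNA as everything else. A mean of at least 100 CPM was reached by 1404 transcripts in monocytes and 1103 in B cells, and by 875 in both, which is 62.3% of the former and 79.3% of the latter. In 669 of the 875 (76.5%), the 95% interval of the difference in limma on log2(CPM + 1) lay within 2-fold either way, which is called a like level here. These 669 held 47.1% to 50.5% of the total in monocyte samples and 55.6% to 58.2% in B cell samples. A like level did not mean no difference, since edgeR called 462 of the 669. Of the 875, 350 were called higher in monocytes and 303 higher in B cells.

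The 2 most abundant transcripts of like level differed in opposite directions. ENSRNOT00000005577 was at 11332 CPM ± 1239 in monocytes (SD, n = 6) and 15091 CPM ± 816 in B cells (SD, n = 6). The highest monocyte sample, at 12617 CPM, lay below the lowest B cell sample, at 14361 CPM, and the log2 difference was -0.46 (95% interval -0.65 to -0.27 in limma, edgeR adjusted p = 0.00033). ENSRNOT00000071708 was at 13024 CPM ± 427 in monocytes and 10358 CPM ± 525 in B cells, again without overlap. Its limma log2 difference was 0.29 (95% interval 0.14 to 0.44, edgeR adjusted p = 0.00114).

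The like-level transcripts were abundant in nearly all immune groups. At least 100 CPM was reached by 647 of the 669 in CD4 T cells, 642 in CD8 T cells, 657 in NK cells, 577 in neutrophils, 651 in whole spleen and 630 in whole blood cells. In control liver 294 reached that level, and 476 were more than 2-fold below the mean of the 2 cell types there while 29 were more than 2-fold above it. In neutrophils 16 were more than 2-fold below that mean and 13 more than 2-fold above it. What monocytes and B cells shared at high level was thus mostly held by the other sorted types too.

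A smaller number of transcripts set monocytes and B cells together apart from the other 4 sorted types. In 1 edgeR fit over the 36 sorted samples, 22 of 14172 transcripts (0.155%) were higher in monocytes and in B cells than in each of neutrophils, CD4 T, CD8 T and NK cells, with adjusted p under 0.05 in all 8 contrasts. The lower of the 2 means was 1.11 to 2.12 times the highest of the other 4 means, with a median of 1.51, and at least 1.5 times in 12 of the 22. Between the 2 cell types themselves, 11 of the 22 were called higher in monocytes, 1 higher in B cells and 10 neither. In control liver all 22 were below both cell types, with a highest mean of 18.1 CPM. The converse, called lower in both than in each of the 4 others, held for 10 transcripts (0.0706%), of which 3 were called higher in B cells and 0 higher in monocytes. The lowest of the other 4 means was 0.994 to 1.91 times the higher of the 2 means. At the low end, a B cell mean of 123 CPM was not below the neutrophil mean of 122 CPM before TMM scaling.

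**Figure D5:**
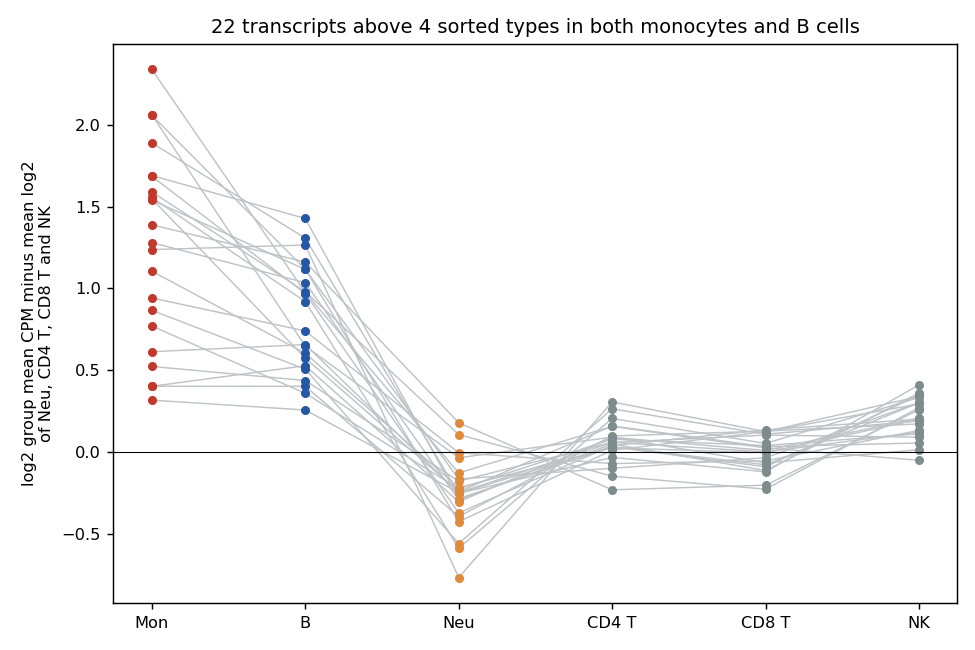
The 22 transcripts higher in both monocytes and B cells than in 4 other sorted types. The vertical axis is log2 of the group mean CPM minus the mean log2 of the neutrophil, CD4 T, CD8 T and NK group means, points are group means and each line joins 1 transcript over the 6 sorted types. Monocytes are above B cells in most of the lines, matching the 11 called higher in monocytes and 1 higher in B cells.

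The most abundant of the 22, chosen after its values were seen, was ENSRNOT00000073474. It ran from 346 through a median of 389 to 431 CPM in monocytes and from 257 through 333 to 402 CPM in B cells, and the 2 ranges overlapped. The log2 fold change between them was 0.19 (SE 0.0923, edgeR adjusted p = 0.0851). Group means were 168 CPM in neutrophils, 126 in CD4 T cells, 129 in CD8 T cells and 177 in NK cells, and 18.1 CPM in control liver. Whole spleen at 271 CPM and whole blood cells at 236 CPM lay between NK cells and B cells. The size of this set depended on single replicate numbers. It fell to 11 without replicate 6 and rose to 45 without replicate 5 of every group, and the converse set rose from 10 to 20 without replicate 5. With replicate 5 of a single type left out, the set of 22 became 32 without NK cells, 26 without CD4 T or without CD8 T cells, and 22 without neutrophils, without monocytes or without B cells. NK cell replicate 5 held 288 CPM of ENSRNOT00000073474, more than the lowest B cell sample. Same-numbered samples of the 4 splenic types tended to deviate together, with a median r of 0.18 and 21 of 36 pairs over 0.1, and with the replicate number as a block in the fit 37 transcripts were above, 21 of them among the 22, and 13 below.

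Hardly any transcript at 10 CPM or more in all samples of 1 cell type was at the floor in the other. Of 7225 transcripts at 10 CPM or more in all 6 monocyte samples, 7204 were above 0 in all 6 B cell samples, and 0 were at the floor of at most 3 estimated counts in every B cell sample. Of 6885 such transcripts of B cells, 6834 were above 0 in all 6 monocyte samples and 3 were at the floor. The floor is on the deposited scale, where the weight of 1 read differs between transcripts, so it is not a limit on reads. Nor does a value above it show that cells of that type made the transcript, since the purity of the sorts was not tested.

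The 3 transcripts at the floor in monocytes are named after their values were seen. ENSRNOT00000057022 was at 46.0 to 112 CPM in B cells, ENSRNOT00000078806 at 35.1 to 64.1 CPM and ENSRNOT00000084588 at 14.9 to 29.0 CPM, while no monocyte sample exceeded 0.190 CPM in any of them. None of the 3 was limited to B cells. NK cells held means of 67.7, 44.1 and 19.9 CPM of the 3, and whole spleen 78.7, 51.6 and 18.2 CPM. NK cell replicate 5 was the highest NK sample for each, at 166, 94.9 and 46.1 CPM. The NK medians were 51.7, 35.8 and 15.5 CPM. ENSRNOT00000057022 was higher in control liver, at 111 CPM, than the B cell mean of 69.4 CPM, while ENSRNOT00000078806 was at 2.14 CPM in control liver. Neutrophils held 0.0831, 0.0434 and 0.0583 CPM of the 3, so that both cell types sorted from blood were near 0. In each of the 3, B cell replicate 4 was the highest B cell sample.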

How the data were processed

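RNA of 61 samples was sequenced as paired-end reads from a directional library kit. After trimming, the authors ran Salmon 1.6.0 against Ensembl cDNA of Rnor_6.0 and read its output into R 4.1.3 with tximport, and the processing notes also name mRatBN7.2. The deposited values are estimated counts per transcript, with 0% of the values above 0 whole and totals that differ between samples, although the methods name TPM. The lowest values above 0 had a quartile range of 0.590 to 3.92 between transcripts, as when length has been divided out, so the number of reads is unknown and precision was taken from replicates alone.

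Values were rounded and tested with edgeR 4.0.16 in R 4.3.3 (TMM, quasi-likelihood test, mean of at least 1 CPM, Benjamini-Hochberg threshold 0.05) on monocytes and B cells alone. SE is the fold change divided by the square root of F. Like levels used limma 3.58.1 with a pseudocount of 1. Named transcripts were the 2 highest and 2 lowest fold changes among called transcripts without overlap and with at least 100 CPM in the higher group, and the 2 most abundant at like levels. The members and lists were chosen with earlier results of these data known. The 18 gene lists prepared for pathways and markers could not be followed, because no identifier matched a name. Alternatives were other scalings, filters and pseudocounts, limma, DESeq2 1.42.0, all sorted samples in 1 fit, a replicate block and leaving samples out. No 2 samples were identical (0 pairs). The scripts were tested on simulated data.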

Additional observations from a re-analysis of the deposited data

Results flagged for a closer look

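In 14 of 60 checks, 1 sample lay apart from the others of its group by Dixon's 95% criterion. Each check took 1 quantity or 1 transcript in 1 group of 5 or 6 samples. Chance alone gives such a flag in about 1 in 20 checks. The checks reused the same samples and are not independent, so the 14 flags cannot be weighed against that rate. The cause was not tested for any of the 14. Monocyte replicate 2 had 11.5% of its total in the 10 most abundant transcripts, against 9.11% to 9.68% in the other 5 monocyte samples. B cell replicate 2 had 8355 transcripts at 10 CPM or more, against 7584 to 7841 in the others, and a sum of 28735 CPM over the transcripts more than 8-fold higher in B cells, against 21391 to 23365 CPM.

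Replicate 5 of several groups was high for the 2 named transcripts higher in B cells. ENSRNOT00000017065 was at 307 CPM in CD4 T cell replicate 5, 371 CPM in CD8 T cell replicate 5, 470.1 CPM in NK cell replicate 5 and 59.1 CPM in whole blood cell replicate 5, where the next highest samples had 159, 136, 192 and 4.34 CPM. ENSRNOT00000017060 was at 302 CPM in CD8 T cell replicate 5, 394 CPM in NK cell replicate 5 and 42.7 CPM in whole blood cell replicate 5, where the next highest had 110.1, 168 and 3.08 CPM. In B cells replicate 4 was the highest for both transcripts. Spleen replicate 5 was low for ENSRNOT00000011711, at 7.17 CPM against 9.31 CPM in the next lowest.

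Near 0 in monocytes, single samples were apart for ENSRNOT00000017060 at 0.933 CPM in replicate 2, ENSRNOT00000078806 at 0.182 CPM in replicate 1 and ENSRNOT00000084588 at 0.190 CPM in replicate 1.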

How the results depend on the processing

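Every fold change of a named transcript kept its direction and its side of the threshold. Of the counts and fold changes recomputed, 208 counts stayed within 1.5 times, 27 moved further and 168 values of named transcripts kept their call. No transcript called in either direction was called in the opposite one under any alternative (0 opposite calls). The cause of the changes below was not tested. At a minimum of 10 CPM 8133 transcripts were tested, with 3028 called higher in monocytes and 2973 higher in B cells. Of these, 3028 and 2501 had the same call at the minimum of 1 CPM. In neutrophils against splenic cells, 2152 and 2347 were called in the same direction. The share of calls higher in monocytes was 50.1%, and ran from 45.9% with all 36 sorted samples in 1 fit, through 47.3% with no filter, to 52.8% without TMM. Without TMM, in neutrophils against splenic cells, 2465 transcripts higher in monocytes were higher in neutrophils and 830 in splenic cells. Those higher in B cells but also in neutrophils numbered 83. In whole blood cells against spleen, 1658 transcripts higher in monocytes were higher in blood and 413 in spleen, and 62 higher in B cells were higher in blood.

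Leaving out 1 replicate number gave 154 to 260 transcripts higher in B cells and in neutrophils (lowest without replicate 6), 100 to 137 higher in monocytes and in spleen, and 103 to 155 higher in B cells and in whole blood cells (both lowest without replicate 1, with 103 and 105 without replicate 4). Transcripts above the other 4 sorted types in monocytes and B cells numbered 11 to 45 and those below 6 to 20. They were 13, 14 and 13 above without replicates 1, 2 and 3, and 6 below without replicate 2. Of the 45 without replicate 5, 19 were among the 22. Membership also changed where the count did not: 13 of 21 without TMM, 16 of 24 at a minimum of 10 CPM and 18 of 23 with DESeq2 size factors were among the 22. Like levels numbered 5275 at a minimum of 10 CPM and 420 within 1.5-fold. Transcripts seen only in B cells numbered 9 at a minimum of 5 CPM, 0 with exactly 0 in monocytes, and 3 to 5 without 1 replicate (5 without replicate 4).

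Deviations of same-numbered monocyte and B cell samples had r of -0.075 to 0.061. No monocyte sample correlated best with the B cell sample of its own number. These values cannot show whether same-numbered samples came from the same rat or batch, which was not tested. Between monocytes and neutrophils r ran from 0.025 to 0.169, and in 5 of 6 pairs the same number was the best match. Between the 4 splenic types r ran from -0.124 to 0.574, and in 23 of 36 pairs the same number was the best match. With the replicate block, 4367 transcripts were higher in monocytes and 4254 higher in B cells, and no call of a named transcript changed. In the fit over 36 sorted samples the block, added after seeing the data as were unrounded values and single samples left out, gave 37 transcripts above and 13 below. No paired analysis was possible for the transcripts seen in 1 type only because that count comes from no test. The depth in reads is unknown, so levels near 0 give no limit.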
